A study of Homo sapiens with 4 samples.

Results

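KITLG encodes KIT ligand, also called stem cell factor, the secreted and membrane-bound cytokine that activates the receptor tyrosine kinase KIT and is known for its part in blood cell formation, pigmentation and germ cell survival. The RNA made from this gene was examined for contacts with SAF-A (scaffold attachment factor A, also named hnRNP U), an abundant nuclear protein that binds DNA and RNA and is known for holding nascent and chromatin-bound RNA in the nucleus. A gene of this length is copied into a pre-mRNA that is mostly intron, and introns are removed and degraded in the nucleus, so a protein of the nucleus can meet parts of the transcript that the mature mRNA no longer has.

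The members are the CLIP-seq peaks on the minus strand of chromosome 12, the strand from which KITLG is transcribed, whose midpoint lay in the gene's interval of 88.1 kb (GRCh37, 88886570 to 88974628). They number 215 of 278959 listed peaks. KITLG was chosen by a high number of sites that recurred between the pull-downs with no input peak on them, so the number of peaks, their recurrence and the contrast of pull-down with input are given as descriptions and are not tested. Positions along the gene are given as the distance from its 5′ end, which on this strand is the higher coordinate.

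CLIP-seq recovers the RNA fragments that ultraviolet light has linked to a protein. HCT116, an established human colorectal carcinoma line with unaltered SAF-A, supplied all 4 libraries, and no treatment is named in the labels. In 2 pull-down libraries the RNA came from an immunoprecipitation with a SAF-A antibody, and in 2 input libraries it came from the same kind of lysate without that step. Both were cut from the membrane at the size of SAF-A and a little above, which makes the input a background matched for size. The labels do not say whether replicates are separate cultures, so their spread may be technical.

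The input lists held 29386 and 42256 peaks and the pull-down lists 96061 and 111256, given here and throughout in the order of replicates 1 and 2. Read depth is unknown, because the files give peaks and not reads, and how much KITLG RNA the cells held was not analysed here. The submitters' notes name GRCh38, yet at the numbers that RefSeq gives KITLG on GRCh38.p14 the 4 lists held 3 minus-strand peaks, against 215 in the GRCh37 interval. Exons, introns and sequences under the peaks were not used here, since no genome or gene models of that build were at hand, and for the same reason the genes of the KIT signalling pathway were not counted.

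KITLG carried 86 and 107 peaks from pull-down RNA but 6 and 16 from input RNA. Scaled to the length of each list, the pull-downs gave it 8.95 and 9.62 of every 10000 listed peaks, whereas the inputs gave it 2.04 and 3.79. The groups did not overlap. The mean was 9.29 ± 0.47 against 2.91 ± 1.23 (SD, n = 2 each), a ratio of 3.19 or a log2 ratio of 1.67. Windows of the same length on 1 strand give the background for this contrast: of 885 windows with a mean of at least 5 peaks, 294, or 33.2%, had a share that was higher in each pull-down than in either input, and KITLG was among them. The median log2 ratio of the 786 such windows with a peak in every library was -0.64, and KITLG took place 56 from the top. Among fuller windows, with a mean of at least 10 peaks, 57.0% had a higher share in each pull-down than in either input. By number of peaks KITLG took place 6 of 52081 windows in each pull-down, and places 207 and 45 in the inputs. The grid of windows holds KITLG as 1 whole window but can cut other loci, so these places may favour it.

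Where the KITLG peaks stood in their lists bears on this count. When each list was shortened to its 29386 best-scoring peaks, the pull-downs kept 3 and 5 KITLG peaks while the inputs kept 6 and 10. The log2 ratio was then -1, the reverse of the whole lists. The shortened pull-down lists ended at scores of 30 and 33, and the score of the best KITLG peak was 33 and 41, whereas the shortened input lists ended at scores of 10 and 13. Among peaks of 50 bases or more alone, KITLG took 9.62 and 5.60 of every 10000 such pull-down peaks and 7.69 and 8.91 of every 10000 such input peaks, which overlap, with a log2 ratio of -0.13. Among narrower peaks it took 8.82 and 10.6 of every 10000 in the pull-downs against 0.437 and 1.93 in the inputs, a log2 ratio of 3.03. The larger number of KITLG peaks in the pull-downs was thus made up mostly of peaks under 50 bases with scores in the lower part of the list.

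The peaks followed the gene's strand and stopped near its edges. On the plus strand of the interval 0 peaks were listed in any library, so the whole of its 86 and 107 pull-down peaks and of its 6 and 16 input peaks was on the transcribed strand. The strand is part of the rule that picks the members, so the minus-strand share is a description and was not tested. Its 95% Wilson interval, which covers counting error alone, had lower bounds of 95.7% and 96.5% in the pull-downs. KITLG was not alone in this: of 17 windows of the gene's length with at least 50 peaks in both pull-downs, 4, KITLG included, had 0 pull-down peaks on the opposite strand, the median was 2 and the highest number was 8.

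**Figure D1:**
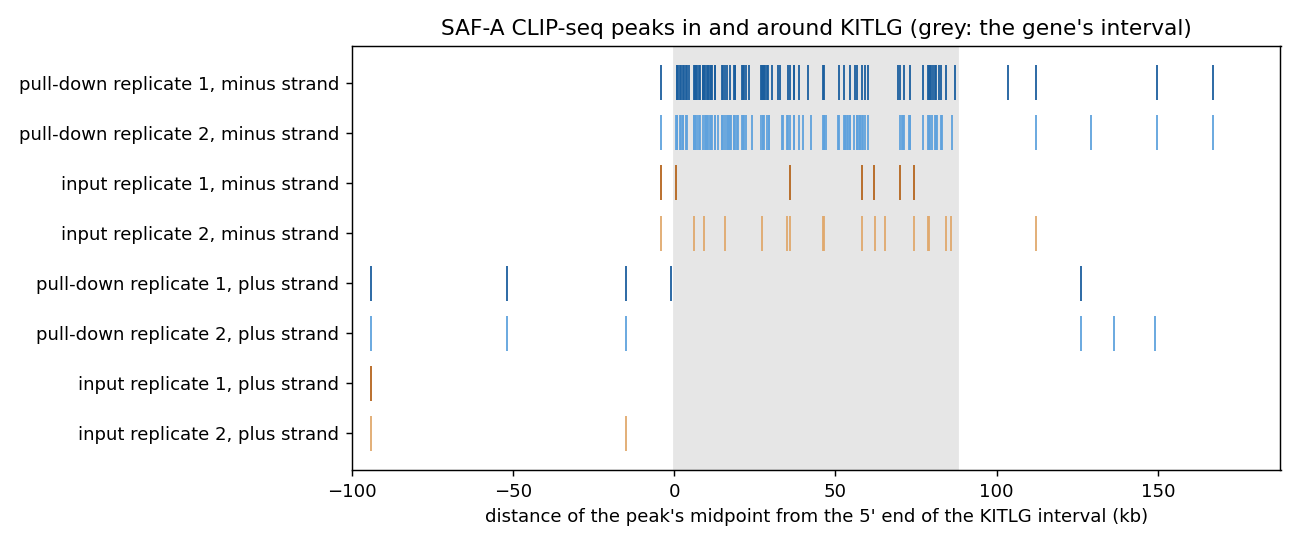
Peaks of the 4 libraries by distance from the 5′ end of the KITLG interval (kb; negative values lie upstream), with the interval in grey and each vertical line the midpoint of a peak, the upper rows for the minus strand and the lower rows for the plus strand. The minus-strand rows of the pull-downs are filled with 86 and 107 peaks inside the interval and hold 5 peaks each in the flanks, and the plus-strand rows are empty inside the interval.

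In the 100 kb on either side, the minus strand held 5 peaks in each pull-down, with 1 and 2 for the inputs. That made 9.77 and 12.2 peaks per 10 kb within KITLG against 0.25 per 10 kb in the flanks of each pull-down. The density within the gene was 39.1 and 48.6 times that of the flanks for the pull-downs and 13.6 and 18.2 times for the inputs, the latter on flank counts of 1 and 2. With flanks of 20 kb or 500 kb the mean pull-down ratio was 34.1 and 58.2, against 43.8 with 100 kb. The plus strand of the flanks held 5 and 6 peaks of the pull-downs, and the inputs had 1 and 2 there.

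At the 5′ edge, the outermost KITLG peaks of the pull-downs lay 0.760 kb and 0.420 kb inside the interval, with scores of 24 and 14. Those of the inputs lay 0.410 kb and 6.16 kb inside it. Upstream of the edge the minus strand was empty for about 4.2 kb in every library. The next peak was then a narrow site listed in all 4 libraries (chromosome 12, from 88978868), 13 and 17 bases wide in the pull-downs against 13 and 8 in the inputs, with scores of 11, 13, 15 and 23. It was the lone minus-strand peak in the 100 kb upstream of the gene in each library. At the 3′ edge the outermost KITLG peaks lay 1.07 and 1.85 kb inside in the pull-downs, and the nearest peaks beyond it lay 15.6 and 24.3 kb away. In RefSeq (GRCh38.p14, used for gene order alone), the lncRNA LOC105369885 follows KITLG on the 5′ side and lies on the opposite strand, the lncRNA LOC124902978 precedes it on the 3′ side on the same strand, and the lncRNA LOC124902979, whose strand was not listed, lies within it.

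Within the gene, pull-down peaks were most frequent toward the 5′ end, where transcription starts. Of the pull-down peaks, 60 and 65 lay nearer the 5′ end than the 3′ end, or 69.8% (95% Wilson interval 59.4 to 78.5) and 60.7% (51.3 to 69.5). Of the input peaks 2 of 6 and 6 of 16 did so, or 33.3% (9.68 to 70.0) and 37.5% (18.5 to 61.4). These intervals cover counting error alone, over peaks of 1 transcript of which some are close neighbours, and they test nothing. No such share of other windows is given here as a background. The pull-downs lay above the inputs, at 65.3% ± 6.4 against 35.4% ± 2.9 (SD, n = 2 each). The two-sided exact permutation p was 0.333, which is the smallest that 2 against 2 samples allow, so this design cannot reach 0.05. The median distance from the 5′ end was 25.01 and 29.2 kb for pull-down peaks against 60.2 and 52.4 kb for input peaks, also with an exact permutation p of 0.333. With peaks of a score of at least 20 alone, this difference shrank from -29.2 to -1.69 kb (exact permutation p = 1). The inputs then kept 1 and 5 KITLG peaks, that of replicate 1 at 0.41 kb, so the smaller value rests on few input peaks.

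Along the gene in steps of 10 kb from the 5′ end, the pull-downs listed 22 and 21 peaks in the first step, 16 and 22 in the next, then 13 and 12, 8 and 9, and 3 and 6 between 40 and 50 kb. The count then went up again to 7 and 18 between 50 and 60 kb. Between 60 and 70 kb it was 2 and 1, the lowest of the gene. Beyond that gap the pull-downs held 8 and 11 peaks between 70 and 80 kb and 7 and 7 in the remaining 8.06 kb. The inputs held 0 to 2 (replicate 1) and 1 to 3 (replicate 2) peaks in each step, with no such gradient.

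Peaks were therefore neither even along the gene nor confined to its ends. The longest stretch without a pull-down peak was the same in both libraries, 9.29 and 10.0 kb long, and began 60.1 kb from the 5′ end in each. In 18 bins of 5 kb, the counts of both pull-downs moved together (Pearson r = 0.79, Spearman rho = 0.81), a description over bins of 1 gene that share library and gene. Between pull-down replicate 1 and input replicate 2, the input with more KITLG peaks, r was 0.06. The inputs, with only 6 and 16 peaks, were about as unlike each other (r = 0.09), so these values show no contrast between the groups. The densest 5 kb by sites found in both pull-downs ran from 6.16 to 11.2 kb (chromosome 12, 88963468 to 88968467). Pull-down peaks in it numbered 15 and 12, and input peaks 0 and 1. Its 9 shared sites were all free of input peaks. A shared site just outside its 5′ edge, at 6.14 kb, overlapped a peak of input replicate 2 with a score of 20. A stretch of 5 kb starting at that site would hold as many shared sites. That all were free of input peaks thus depends on where the stretch begins.

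**Figure D2:**
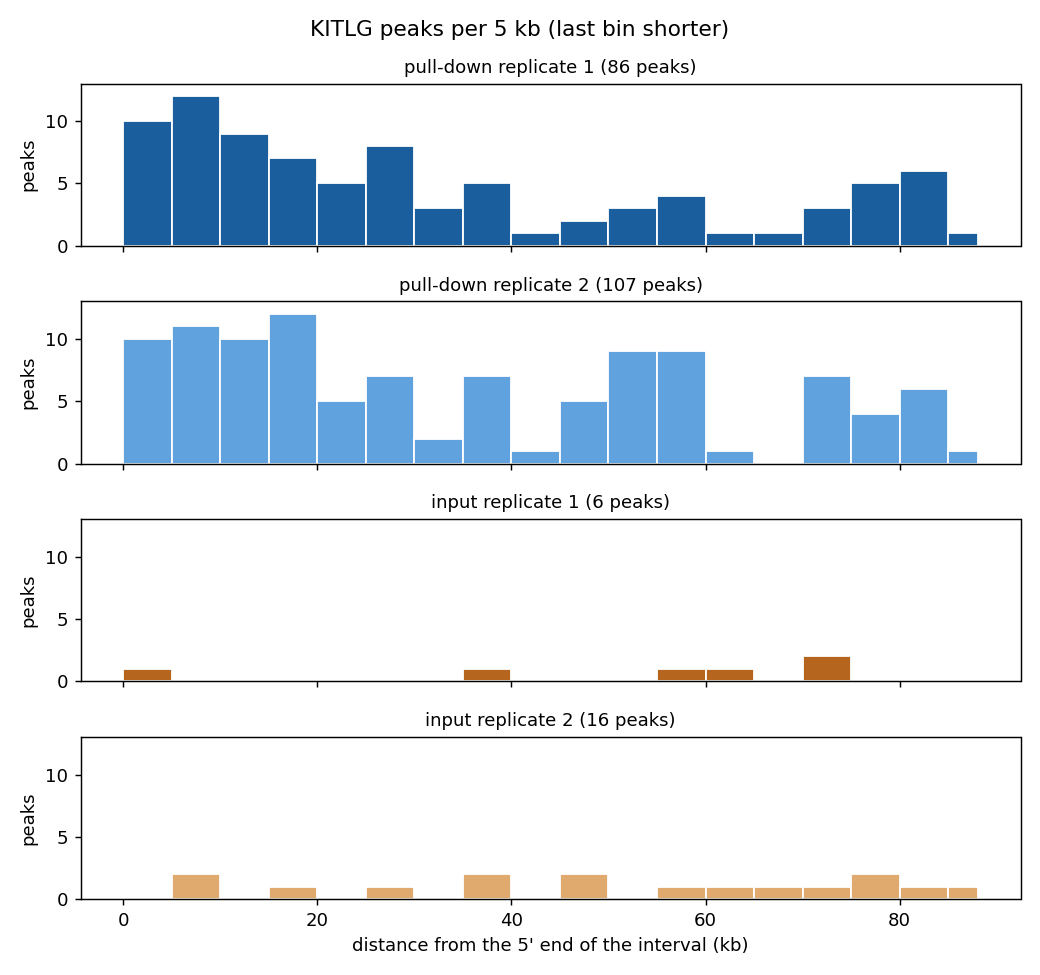
Number of KITLG peaks in 5 kb steps from the 5′ end of the interval (the last step is shorter), 1 panel per library with the same vertical axis. Both pull-downs hold 7 to 12 peaks in each step of the first 20 kb and 0 or 1 peaks in each step between 60 and 70 kb, while the inputs hold at most 2 in any step.

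Within the pull-downs, the share on the 5′ side was similar among the better-scoring peaks. Among pull-down peaks with a score of at least 20, 12 of 17 and 17 of 28 lay nearer the 5′ end, or 70.6% and 60.7%. The inputs had 1 and 5 peaks of that score, so their shares of 100% and 40% rest on few peaks, and the difference between the groups was then -4.35 percentage points in place of 29.8. Of the narrowest pull-down peaks, up to 15 bases, 8 of 14 in each library lay in the first 10 kb. For all KITLG pull-down peaks it was 22 of 86 and 21 of 107. Several of the narrowest were close neighbours, between 6.14 and 6.37 kb in replicate 1 and between 6.21 and 6.46 kb in replicate 2. These 8 are therefore not all separate places. Of the wide peaks, 1 of 15 and 1 of 12 lay in the first 10 kb. Those nearer the 5′ end than the 3′ end numbered 7 of 15 and 9 of 12, so the replicates differed in this.

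KITLG peaks in the pull-downs were of middling width. Their median was 27 and 26 bases, with quartiles of 20 to 43.5 and 18.5 to 36, while the median of the whole lists was 15 bases in each. Peaks of 16 to 49 bases made up 66.3% and 75.7% of KITLG peaks against 29.4% and 30.3% of the lists. Peaks of up to 15 bases made up 16.3% and 13.1% against 54.3% and 50.4%. The shares of 50 bases or more were 17.4% (95% Wilson interval 10.9 to 26.8) and 11.2% (6.53 to 18.6). The lists had 16.2% and 19.2%, so the pull-downs lay on opposite sides of their lists. These intervals cover counting error alone, over peaks of the same transcript, and they test nothing.

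This width was shared with other dense stretches. Among the 17 windows with at least 50 peaks in both pull-downs, the median width ran from 4 to 40 bases in replicate 1 and from 4 to 34.5 in replicate 2. The middle window had 27.5 and 24 bases, next to the 27 and 26 of KITLG, which took places 11 and 7 from the widest. Against the whole list KITLG peaks were wide, and among dense windows they were not.

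Input peaks in KITLG were wider than those of the pull-downs. Their median was 61 and 54.5 bases, against 14 and 16 bases over the input lists. Of them, 5 of 6 and 10 of 16 were at least 50 bases wide, or 83.3% (43.6 to 97.0) and 62.5% (38.6 to 81.5), against 22.1% and 26.6% of the lists, and 0 were as narrow as 15 bases. The library medians averaged 26.5 ± 0.7 bases (SD, n = 2) for pull-downs against 57.8 ± 4.6 for inputs (SD, n = 2). The groups did not overlap, with a two-sided exact permutation p of 0.333, the smallest that 2 against 2 samples allow. The input medians rest on 6 and 16 peaks, and how often other windows show such a gap is not given here. The whole lists also had a smaller share of wide peaks in the pull-downs, 16.2% and 19.2%, but their medians were alike. The intervals above cover counting error alone. In the shortened lists of equal length, with 3 and 5 pull-down peaks left, the difference in median width turned to 25.25 bases from -31.25. For wide peaks, the pull-down share minus the input share was -58.6 percentage points. Counted from 100 bases it was -3.46 points, with an exact permutation p of 1.

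**Figure D3:**
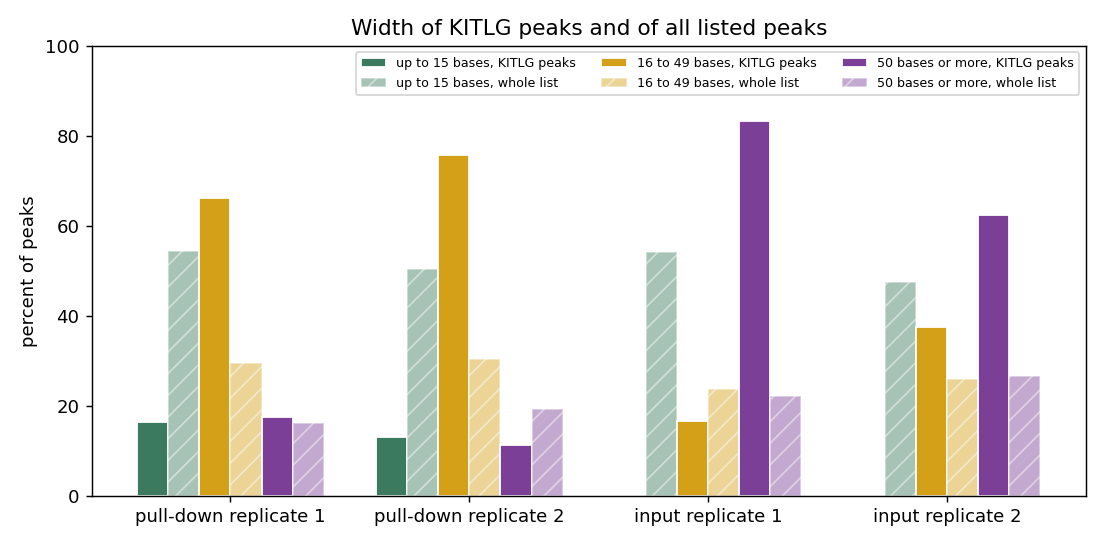
Percentage of peaks in 3 width classes (vertical axis) in each library, solid bars for KITLG peaks and hatched pale bars for all listed peaks of the same library. In the pull-downs the class of 16 to 49 bases holds 66.3% and 75.7% of KITLG peaks against 29.4% and 30.3% of the lists, and in the inputs the class of 50 bases or more holds 83.3% and 62.5% against 22.1% and 26.6%.

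The score deposited with each peak is a whole number of at least 10 whose meaning is not stated, so it ranks peaks within a list and is not compared between lists as an amount. KITLG peaks ranked low. Their median score was 13 and 14 where the pull-down lists had 19, and 11.5 and 14.5 where the input lists had 17. In the pull-downs 53 and 58 members, or 61.6% and 54.2%, scored 10 to 14, against 34.0% and 35.2% of the lists. Scores of 50 or more were held by 15.4% and 14.8% of listed pull-down peaks and by 0 KITLG peaks. The best KITLG peak ranked 25615 of 96061 and 21391 of 111256.

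A low score was likewise usual for dense windows. The median score of the 17 dense windows lay between 12 and 17.5 in replicate 1 and between 12 and 18 in replicate 2, with a middle value of 14 in each. In the best score KITLG stood lower: it had the lowest maximum of the 17 windows in replicate 2, 41 against a middle value of 61, and its 33 in replicate 1 stood against a middle value of 64 and a lowest of 29. Within KITLG wider peaks scored higher, with a Spearman rho of 0.54 between width and score in each pull-down, over 86 and 107 peaks of 1 transcript. Over the whole lists rho was 0.08 and 0.01.

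**Figure D4:**
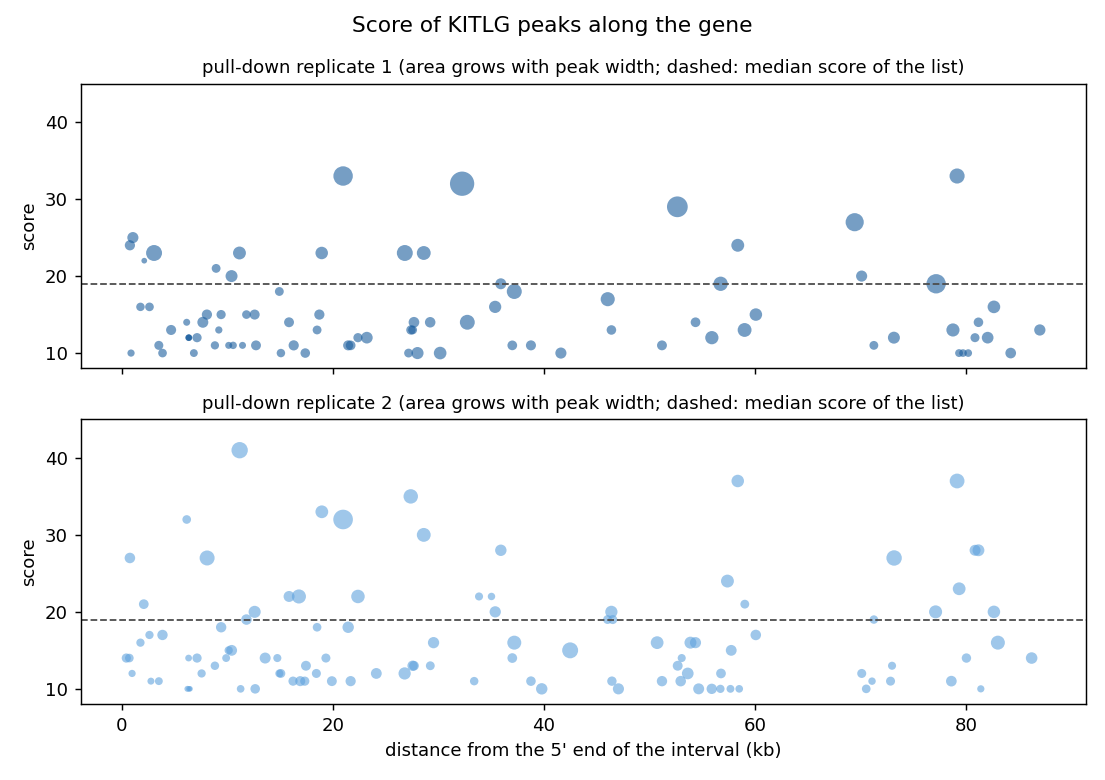
Score of each KITLG pull-down peak (vertical axis, no unit) against its distance from the 5′ end (kb), the area of a point growing with the width of the peak and the dashed line marking the median score of the list, 19 in each pull-down. Most points lie below the line, none reaches 50, and wide peaks lie higher than narrow ones.

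Over all widths together, KITLG peaks came back about as often as listed peaks, but the narrowest did so less often and the wide ones more often. Peaks on 1 strand were matched where they had at least 1 base in common. Of the KITLG peaks of pull-down replicate 1, 56 of 86 or 65.1% (95% Wilson interval 54.6 to 74.3) were found in replicate 2, and 57 of 107 or 53.3% (43.9 to 62.4) of those of replicate 2 were found in replicate 1. For the whole lists these shares were 65.6% and 56.7%. The gene was chosen for recurring sites and its peaks share 1 transcript, so the intervals test nothing here. In KITLG the narrowest peaks were found again least: 5 of 14 and 3 of 14 of those up to 15 bases, against 68.5% and 62.2% of such peaks in the lists. Of wide KITLG peaks 11 of 15 and 9 of 12 were found again, against 56.3% and 41.1% of wide peaks in the lists. Most KITLG peaks were 16 to 49 bases wide, and these came back about as often as in the lists. Of them 40 of 57 and 45 of 81 were found again, or 70.2% and 55.6%, against 65.4% and 57.4%. The counts of narrow and of wide KITLG peaks are small, and none of these shares was tested.

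Overlap with the inputs was lower than in the lists. Of the KITLG pull-down peaks, 11 of 86 or 12.8% (7.29 to 21.5) and 11 of 107 or 10.3% (5.84 to 17.5) overlapped an input peak, against 29.9% and 26.6% of the lists. Looked at from the other side, 4 of 6 and 11 of 16 KITLG input peaks, or 66.7% and 68.8%, had a pull-down peak, against 71.0% and 67.7% of the input lists. The peaks shared by both pull-downs merged into 56 sites, of which 47 or 83.9% (72.2 to 91.3) were free of input peaks. Over the whole lists this held for 57% of 62968 sites. The gene was chosen for such sites, so the lower overlap and the higher share are part of the choice, and the intervals test nothing. Among windows of the same grid KITLG took place 5 by number of input-free sites.

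All peaks of the 4 lists together fell on 141 separate KITLG sites. Of these, 136 had a pull-down peak, 18 had an input peak and 13 had both. A single library accounted for 79 sites, 28 of them in pull-down replicate 1 and 48 in pull-down replicate 2. The sites of both pull-downs had a median width of 36 bases after merging, and 2 of the 56 were 15 bases or narrower. The corresponding values over the genome were 17 bases and 43.1%.

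The shared sites that ranked best by mean score rank in both pull-downs were spread over the gene. The site with the best mean rank lay 79.1 kb from the 5′ end (chromosome 12, 88895449 to 88895514, 66 bases), with scores of 33 and 37 in the pull-downs and 10 in input replicate 2. The next, at 21.0 kb (88953608 to 88953722, 115 bases), scored 33 and 32 and had no input peak. The third lay at 11.2 kb (88963429 to 88963508, 80 bases) with scores of 23 and 41. These first 3 sites thus came from the 3′ part, the 5′ side and the edge of the densest 5 kb.

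The site at place 4 lay at 58.4 kb (88916242 to 88916288, 47 bases) and scored 24 and 37. It was also listed in the inputs, with scores of 11 and 21, and was 1 of the 2 KITLG sites found in all 4 libraries. Place 5, at 18.9 kb (88955658 to 88955713, 56 bases), scored 23 and 33. Place 6, at 28.6 kb (88945994 to 88946048, 55 bases), scored 23 and 30. Both were free of input peaks.

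The widest shared sites were 129, 128 and 115 bases wide. The first lay at 77.2 kb (88897413 to 88897541) with scores of 19 and 20, and the next at 52.6 kb (88921926 to 88922053) with scores of 29 and 13. The last was the site at 21.0 kb given above. None of the 3 had an input peak. The other site of all 4 libraries lay at 35.9 kb (88938684 to 88938735 over all 4 libraries) and scored 19 and 28 among pull-down peaks, with 10 and 15 among input peaks.

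Input peaks without a pull-down counterpart lay toward the 3′ end. There were 2 in input replicate 1 and 5 in replicate 2, and all 7 lay more than 60 kb from the 5′ end, between 62.1 and 86.0 kb. Of the 15 input peaks that did have a pull-down peak, 3 lay that far out, and their median distance was 35.9 kb. The 7 peaks fell on 3 sites of input replicate 2 alone and on 2 sites of both inputs. The inputs thus shared 2 sites that both pull-downs lacked. The first, at 62.1 kb, scored 12 and 18 in the inputs (88912499 to 88912564 in replicate 1, 88912494 to 88912537 in replicate 2), and the nearest pull-down peak was at least 1964 bases away. The second, at 74.5 kb, scored 12 and 21 (88900096 to 88900155 and 88900093 to 88900143), with the nearest pull-down peak at least 1261 bases away. The first of these lies in the stretch where the pull-downs were empty. For the sites of replicate 2 alone, at 65.3, 84.4 and 86.0 kb, the nearest pull-down peak was 4082, 135 and 194 bases away. Whether these input peaks fall in exons was not analysed here.

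Of 16783 other windows of this length on 1 strand with a peak in every library, the 5 most like KITLG were ranked by the Euclidean distance of log2 peaks per 10000 over the 4 libraries, which describes these lists and says nothing of function. The nearest, at a distance of 0.53, was a plus-strand window of the same chromosome (66255407 to 66343465) holding 111 and 135 pull-down peaks beside 6 and 18 of the inputs. The next, at 0.67, was a plus-strand window of chromosome 10 (114740878 to 114828936), holding 80 and 106 against 4 and 13. Its neighbour on that strand (114652819 to 114740877) took place 5, at 1.07. Places 3 and 4, at 0.94 and 0.997, lay on the minus strands of chromosome 11 (121961716 to 122049774) and chromosome X (45614563 to 45702621). Their pull-down peaks had median widths of 23 to 40 bases, which is again wider than the 15 of the lists. They held 24 to 59 input-free sites, against 47 in KITLG.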

How the data were processed

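Peaks of 2 input and 2 pull-down CLIP-seq libraries of HCT116 cells were analysed. The authors deposited 1 list per sample with chromosome, start, end, score and strand, so peaks were called per sample. The authors' score has no stated meaning. Per the submitters' processing notes, STAR, featureCounts and GRCh38 were used, without versions. How peaks were called is not given in the sources used here. No peak was wider than 201 bases, and peaks within a list did not overlap.

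Positions were made 1-based. KITLG peaks were those with their midpoint in the interval. Sites were named by rule: the 6 best by mean rank and the 3 widest in both pull-downs, those of all 4 libraries or of the inputs alone, the densest 5 kb, and the 5 most similar windows. Members and lists were chosen with earlier results of these data known. Windows of the gene's length were laid on a grid holding the interval. Group values are means ± SD; single values were compared by two-sided exact permutation over samples. Overlap and merging were tested on simulated peaks. Python 3.11.15, pandas 2.3.3, numpy 2.4.6, scipy 1.17.1 and matplotlib 3.10.9 were used. Alternatives covered list length, score, overlap, width, flanks, close peaks and each replicate left out.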

Additional observations from a re-analysis of the deposited data

How the results depend on the processing

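Of 100 alternative values, 5 reversed direction, 17 moved beyond the limits set for their kind of value and 78 did not. A difference between the groups counted among the 78 whenever it kept its sign, even where it shrank. Some of the 78 could not have changed, so their number is no measure of robustness. Leaving out an input cannot alter a value taken from the pull-downs alone. With 0 plus-strand peaks in the interval, leaving out peaks or a library keeps the minus-strand share at 100%. In lists of equal length the log2 ratio of KITLG shares was -1, the difference in median width 25.25 bases, that in the share of wide peaks 3.33 percentage points, shared sites 1 and input-free sites 1; recurrence was 33.3% (replicate 1 in 2) and 20% (2 in 1), and 5.69% of windows were higher in the pull-downs. At a score of at least 20, the difference in the share of peaks nearer the 5′ end was -4.35 points, the density over the flanks 51.1, that in median distance from the 5′ end -1.69 kb (exact permutation p = 1), shared sites 7, input-free sites 6 and recurrence 41.2% and 25%. Both settings leave few KITLG peaks. With wide peaks counted from 100 bases, the difference in their share was -3.46 points (exact permutation p = 1) in place of -58.6. Among wide peaks alone the difference in median distance was -17.1 kb, and among narrow peaks the share nearer the 5′ end differed by 50.1 points. The log2 ratio was 3.03 among narrow peaks and -0.13 among wide peaks. With 50% overlap of both peaks, recurrence was 53.5% and 43.0%. Flanks of 20 and 500 kb gave density ratios of 34.1 and 58.2. With a minimum mean of 10 or 2 peaks, 57.0% and 21.3% of windows were higher. Leaving out each library gave log2 ratios of 1.29 to 2.19 and median width differences of -34.5 to -28 bases. Differences in median distance from the 5′ end ran from -33.1 to -25.3 kb, and 24.2% to 46.5% of windows were higher. Shared sites cannot be formed from 1 pull-down, so they were not computed without either. The replicate block, which averages log2 ratios within each replicate number, gave 1.74. Same-numbered libraries deviated together with a correlation of 0.06 over 885 windows, so the numbers are not taken to pair samples. The number of input peaks, 6 and 16, limits every input value.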

Other observations

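The ends of matched peaks were compared between the pull-downs as a further description of KITLG. Of 55 KITLG peaks of replicate 1 that overlapped 1 peak of replicate 2, 12 had the same 5′ end and 13 the same 3′ end, and 23 or 41.8% agreed to within 5 bases at both ends. Over the whole lists 64.0% of 62946 such pairs did so. Among peaks of 16 to 49 bases in replicate 1, the class that most KITLG peaks belong to, the shares were 40% of 40 KITLG pairs and 53.5% of 18476 pairs in the lists. The median shift of the 5′ end was 2 bases in KITLG and in the lists, and that of the 3′ end was 3 bases in KITLG and 1 in the lists.

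Close peaks were few in KITLG, with 2 and 7 neighbouring pairs less than 50 bases apart in the pull-downs and median gaps of 545 and 446.5 bases. Pull-down peaks covered 3065 and 3226 bases, or 3.48% and 3.66% of the interval. The library with more peaks thus covered nearly the same length.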
